A study of Mus musculus with 6 samples.

Results

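The miRNAs described here are the scarce ones of the aged mouse left ventricle: 85 mature miRNAs with a mean of at least 1 and below 10 reads per 1000000 miRNA reads (RPM) over 6 libraries. They were taken from a table of 698 miRNA rows, of which 478 had at least 1 read and 309 reached a mean of 1 RPM. Rows marked with an asterisk as the minor arm of a hairpin were not taken. A further 5 rows in the range, miR-133b, miR-206, miR-146b, miR-212 and miR-34c, were left out by name. The members were chosen by their mean level over all 6 libraries, so the levels below are a description.

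The libraries came from left ventricle of mice more than 50 weeks old. The 3 WT animals were compared with 3 animals of the genotype aMHC403/+, which carry the R403Q change in Myh6, the gene of alpha-myosin heavy chain, and stand as the disease group; HCM in the series title is read here as hypertrophic cardiomyopathy. The titles call the samples biological replicates; neither strain nor sex is given in the labels. The tissue was not sorted, so that fewer cells of a type and less RNA per cell cannot be told apart. The question of the comparison is which scarce miRNAs stand at another level in mutant than in WT ventricle at this age.

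An miRNA is cut from the stem of a hairpin RNA and guides repression of messenger RNAs, for the most part through its seed, bases 2 to 8 from its 5′ end. Many miRNAs are made in large amounts in a few cell types and are nearly absent elsewhere. The scarce end of a heart miRNA profile can therefore hold miRNAs known from germ cells, early embryos, pancreas, epithelia or neurons, as well as weakly used arms of hairpins whose other arm is abundant.

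The sequences below are those of the members whose difference passed the test. That of miR-465c-5p is added, which matched 2 of the hairpins that miR-465a/b/c-3p matched. Those of miR-294, miR-302a and miR-302d, which carry the same seed, are also shown. Letters run 5′ to 3′ and capitals mark the seed. All but miR-302a equal a mature sequence of RefSeq for GRCm38.p6; miR-302a is printed as deposited and matches the RefSeq hairpin, where no mature entry equals it.
miR-465a/b/c-3p: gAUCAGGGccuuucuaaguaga
miR-465c-5p: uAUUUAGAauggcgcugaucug
miR-741: uGAGAGAUgccauucuauguaga
miR-880: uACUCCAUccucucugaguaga
miR-293: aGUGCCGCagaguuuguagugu
miR-216a: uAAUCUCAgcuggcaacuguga
miR-294: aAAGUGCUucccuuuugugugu
miR-302a: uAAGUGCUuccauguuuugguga
miR-302d: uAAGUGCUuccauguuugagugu

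By exact match of the deposited sequences, 72 members had a RefSeq hairpin, 68 of them at 1 locus and 4 at several. miR-741 lay at chrX:66796809-66796831, miR-880 at chrX:66800540-66800561, and miR-465c-5p at 2 loci of which the first is chrX:66826004-66826025, all on the minus strand. miR-465a/b/c-3p is a row that carries several names and matched 5 hairpins between chrX:66825965 and chrX:66839084, so its reads cannot be assigned to 1 of them. miR-293 lay at chr7:3220390-3220411 and miR-294 at chr7:3220691-3220712 on the plus strand, in no other annotated gene of that strand. miR-216a lay at chr11:28757018-28757039, in an intron of the GENCODE gene Gm12082. miR-302d lay at chr3:127545665-127545687, in no other annotated gene of its strand. Genes on the opposite strand were not searched.

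The members together held little of each library. They summed to 342, 376 and 292 RPM in WT and to 343, 313 and 331 RPM in the mutant, or between 0.0292% and 0.0376% of the miRNA reads. A library held 821 to 1524 reads of all members, out of 2483486 to 5223636 miRNA reads, and the median member had 8 to 15 reads. In total 83 members had a read in every library, and 2, miR-1196 and miR-465a/b/c-3p, were at 0 in mutant replicate 3, the shallowest library. A count of 0 allows up to 3 reads, which is 1.21 RPM in that library and 0.574 RPM in the deepest; these limits cover counting error only.

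At this depth counting error made up much of the spread between animals. The variance of a member's reads among the 3 libraries of a group, divided by the variance that counting alone gives at their depths, had a median of 1.98 in WT and 1.10 in the mutant. Among the 193 miRNAs of at least 10 RPM the same medians were 19.8 and 11.0. A ratio below 2 was found for 44 of 85 members in WT and 62 of 85 in the mutant. The highest WT ratios were those of miR-741 at 26.2 and miR-465a/b/c-3p at 23.8, whose WT libraries differed far beyond counting.

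**Figure D1:**
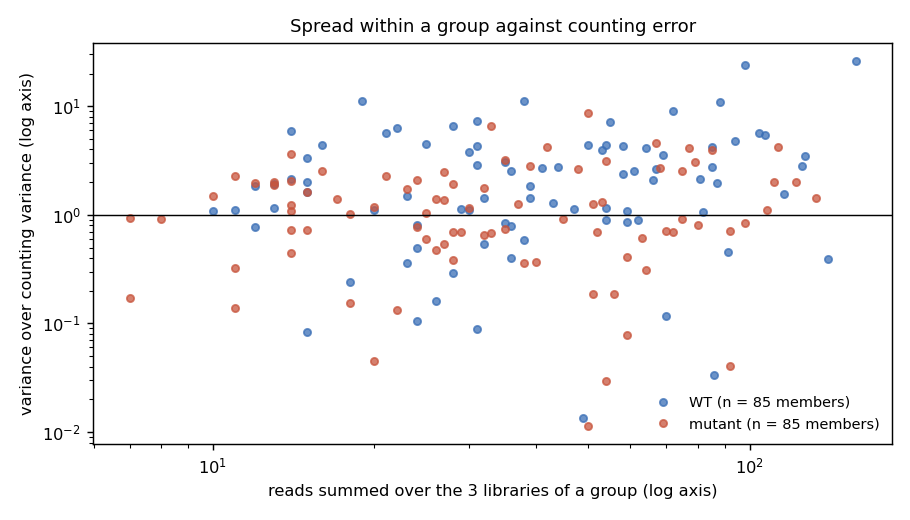
Variance among the 3 libraries of a group over the variance expected from counting, against the reads summed over the group, for the 85 members in WT (blue) and mutant (red), both axes on a log scale. Points at 1 (line) vary as counting alone would make them; the 2 highest WT points are miR-741 at 26.2 and miR-465a/b/c-3p at 23.8.

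The table as a whole read as heart. miR-1, miR-133a, miR-208a, miR-208b and miR-499, the defining miRNAs of heart muscle, summed to between 425034 and 503985 RPM in the WT libraries and between 400915 and 463230 RPM in the mutant. The markers taken for fibroblasts, miR-21, miR-199a and miR-214, summed to 1617 to 3051 RPM in WT and 3951 to 8555 RPM in the mutant. Those taken for leukocytes, miR-142, miR-150 and miR-223, summed to 1310 to 1743 and 2077 to 2361 RPM. Neither sum overlapped between groups, and whether they follow cell numbers was not tested. Markers of endothelium, smooth muscle and red blood cells overlapped between groups.

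Against that background, 5 of the 85 members fell in the mutant and 0 rose (limma on log2(RPM + 1), Benjamini-Hochberg adjusted p under 0.05 over all 309 miRNAs tested). Over all 309, 6.47% passed, 1.94% as lower and 4.53% as higher. At an unadjusted p under 0.05, 11 members were lower and 4 higher, where the shares over all tested were 5.18% and 14.2%. No member rose by edgeR or DESeq2 on recovered reads. The log2 differences lay above 0 for 49 members and below 0 for 36, with a median of 0.06, while 66.3% of all tested lay above 0 with a median of 0.14. Median-of-ratios scaling lowered the median of all tested to −0.0024, so that differences near 0.14 are at the level of the bulk. Of the 80 members that did not pass, many had wide intervals: for 39 of all 85 members the 95% interval lay within 1 log2 unit of 0.

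**Figure D2:**
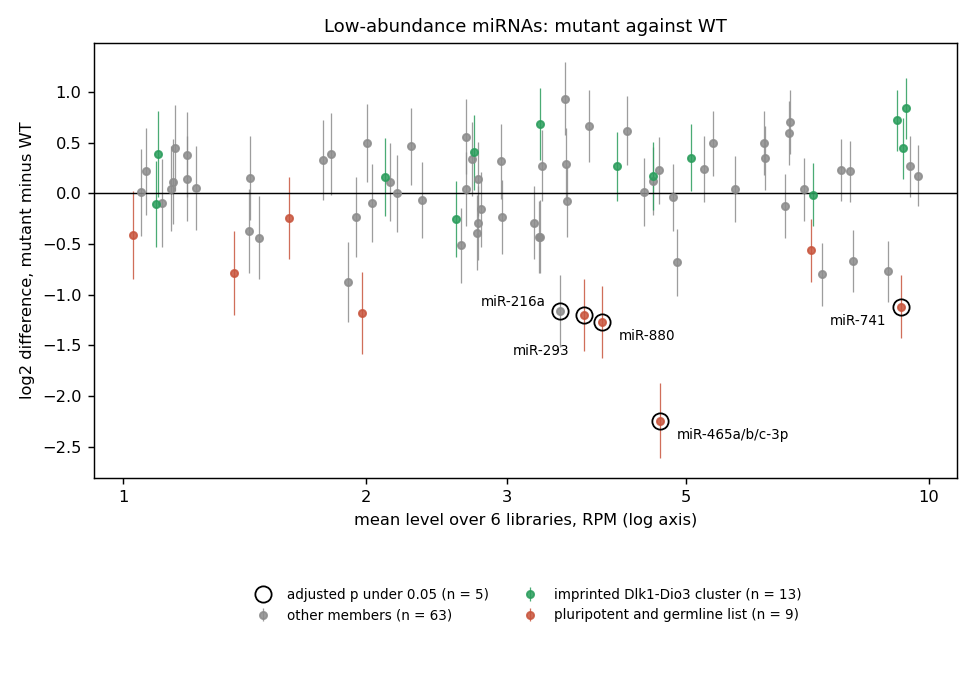
Log2 difference (mutant minus WT, on log2(RPM + 1)) of each member against its mean level over 6 libraries (RPM, log axis), with limma standard errors as bars. The 5 circled members passed and all lie below 0, 4 of them from the list of pluripotent and germline miRNAs (red, n = 9); the 13 members of the imprinted Dlk1-Dio3 cluster are green.

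The members that fell are miRNAs best known from outside the heart. The X-linked cluster that holds miR-465, miR-741 and miR-880 is known in mouse for its expression in testis, in developing germ cells. miR-465a/b/c-3p stood at 15.9, 6.72 and 2.87 RPM in the WT libraries and at 1.17, 1.20 and 0 RPM in the mutants. Every mutant lay below every WT library, and the WT libraries differed widely among themselves. The means were 8.50 ± 6.69 RPM (SD, n = 3) and 0.792 ± 0.686 RPM (n = 3), from 98 and 10 reads. The log2 difference was −2.24 ± 0.37 (SE, limma adjusted p = 2.22e-07). This standard error rests mostly on the spread pooled over all miRNAs at a given level. Without the trend, the limma adjusted p was 0.0217.

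miR-741 stood at 23.3, 11.3 and 5.93 RPM in WT and at 3.51, 5.78 and 5.64 RPM in the mutant. The groups were apart, but the lowest WT library lay close to the upper mutants. The log2 difference was −1.12 ± 0.31 (limma adjusted p = 0.00959). miR-880, from the same cluster, stood at 10.1, 4.57 and 3.45 RPM in WT and at 3.05, 1.20 and 1.21 RPM in the mutant. Again no mutant reached a WT library, and the log2 difference was −1.27 ± 0.36 (limma adjusted p = 0.0107). The fourth member of the cluster, miR-465c-5p, stood at 6.58, 2.15 and 1.15 RPM in WT and 0.234, 0.963 and 0.805 RPM in the mutant. Its groups were apart as well, and it missed the threshold (−1.18 ± 0.41, limma adjusted p = 0.0527).

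miR-293 belongs to the miR-290 to miR-295 cluster, which is known as the main miRNA cluster of mouse embryonic stem cells. It stood at 8.23, 4.57 and 4.21 RPM in WT and at 1.87, 1.93 and 1.61 RPM in the mutant. The mutants lay close together and below all WT libraries, and the difference on the log2 scale was −1.20 ± 0.35 (limma adjusted p = 0.0166). miR-294 of the same cluster stood at 3.84, 1.08 and 1.34 RPM in WT and 0.469, 0.722 and 0.805 RPM in the mutant, apart but not past the threshold (−0.79 ± 0.42, limma adjusted p = 0.276). miR-291a-3p, the member nearest to the lower edge of the range, stood at 2.74, 0.807 and 0.574 RPM in WT and 1.17, 0.481 and 0.403 RPM in the mutant, with overlap. In the miR-302 and miR-367 cluster, known from pluripotent cells, miR-302d stood at 12.6, 7.80 and 6.13 RPM in WT and 5.62, 5.06 and 5.64 RPM in the mutant. No mutant reached a WT library for miR-302d, and the difference of −0.56 ± 0.31 did not pass (limma adjusted p = 0.309). miR-302a overlapped between groups (−0.24 ± 0.41, limma adjusted p = 0.809).

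miR-216a, a miRNA known from the acinar cells of the pancreas, was the remaining call. It stood at 7.95, 4.03 and 3.83 RPM in WT and at 1.64, 1.44 and 2.01 RPM in the mutant. The groups were apart by more than the range of the mutants, and the mutant mean was lower at −1.16 ± 0.36 on the log2 scale (limma adjusted p = 0.0257). miR-192, known from liver, kidney and gut, was the other member of the liver and pancreas list. It stood at 2.19, 3.49 and 4.21 RPM in WT and 2.11, 2.17 and 1.61 RPM in the mutant, apart by a narrow margin and not past the threshold (−0.51 ± 0.37, limma adjusted p = 0.466).

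**Figure D3:**
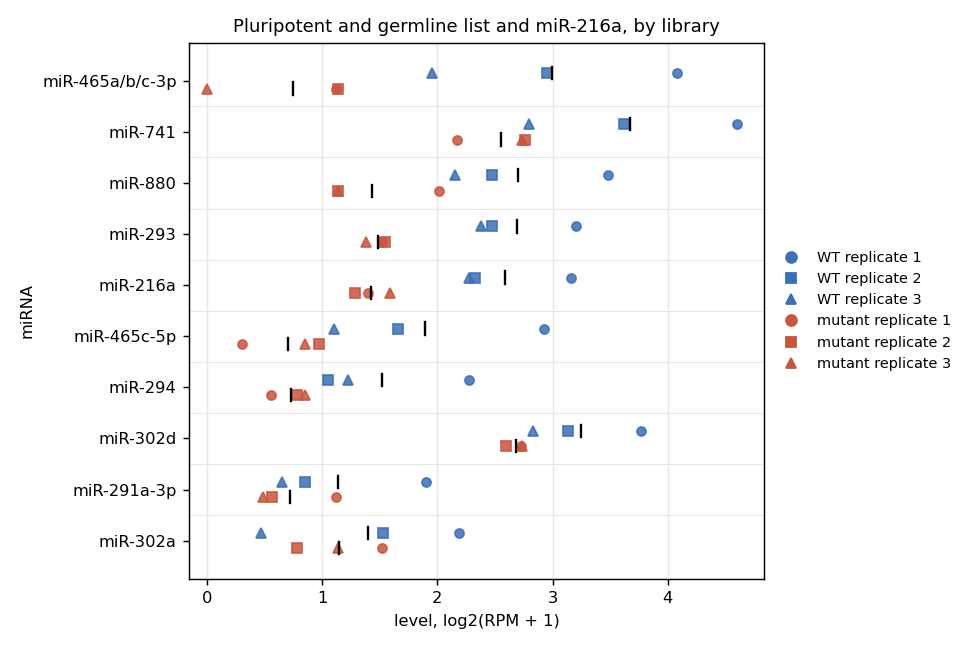
Level of the 9 members of the pluripotent and germline list and of miR-216a in each library, on log2(RPM + 1); blue symbols are WT and red symbols mutant, 1 symbol shape per replicate number, and black ticks mark group means. WT replicate 1 is the highest library for all 10.

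All 9 members of the pluripotent and germline list had log2 differences below 0 (median −1.12), 4 passed, and for 7 the groups did not overlap; over all miRNAs tested 33.7% of differences lay below 0 and 7.12% had all mutants below all WT libraries. For 4 of the 9, among them miR-465a/b/c-3p, the mutant mean was below 1 RPM, so that the level of WT carried them into the range, and the counts are therefore no support for a direction. WT replicate 1 was the highest of the 6 libraries for all 10 of these miRNAs, miR-216a included. For 8 of the 10 the other WT libraries also lay above every mutant. The list summed to 86.9, 40.9 and 26.0 RPM in the WT libraries and 19.0, 18.1 and 17.3 RPM in the mutants, from 317, 152 and 136 reads and from 81, 75 and 43 reads. The mutant sums lay close together, whereas the WT sums spread by more than the distance between the lowest WT library and the mutants. The labels describe multiplexed libraries and give no run or batch, so a batch could not be set against this pattern. Which other samples shared a run with these libraries is not stated, and whether reads of other samples enter these levels was not tested; the values without WT replicate 1 follow.

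With WT replicate 1 left out, miR-465a/b/c-3p passed (limma adjusted p = 0.00343) and the others did not. The adjusted p was then 0.423 for miR-741, 0.366 for miR-880, 0.289 for miR-293 and 0.368 for miR-216a (limma). The mean of the other WT libraries was still 6.06 times the mutant mean for miR-465a/b/c-3p, 1.73 times for miR-741, 2.20 times for miR-880, 2.43 times for miR-293 and 2.31 times for miR-216a, against 10.7, 2.71, 3.33, 3.14 and 3.10 times with all 3. The differences of miR-465c-5p, miR-294 and miR-302d were then −0.67, −0.41 and −0.30. Leaving out mutant replicate 2 ended the calls of miR-880, miR-293 and miR-216a (limma adjusted p = 0.128, 0.0757 and 0.157), as did leaving out mutant replicate 3 (limma adjusted p = 0.104, 0.0936 and 0.0646). miR-741 missed without WT replicate 2 (limma adjusted p = 0.0728) and without mutant replicate 1 (limma adjusted p = 0.0520). On recovered reads with TMM scaling, edgeR's quasi-likelihood test called miR-465a/b/c-3p (adjusted p = 0.0269) and miR-293 (0.0483), and missed miR-216a (0.0567), miR-741 and miR-880 (0.0954 each). limma's standard errors leaned on the spread of all miRNAs at a given level (643 prior against 4 residual degrees of freedom), so the wide WT spread of miR-465a/b/c-3p and miR-741 hardly enters them.

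The scarcer rows of the same clusters, below the range, showed their levels too. Of the 30 rows of the X-linked, miR-290 to miR-295, miR-302 and miR-367 and miR-216 and miR-217 clusters that had a read, 20 were below 1 RPM. These 20 summed to 64, 24 and 32 reads in the WT libraries and to 12, 11 and 3 reads in the mutants, or 17.5, 6.45 and 6.13 RPM and 2.81, 2.65 and 1.21 RPM. All WT libraries lay above all mutants in this sum, with WT replicate 1 again the highest. On their own, miR-465b-5p, miR-743a and miR-216b were apart as lower, and the other scarcer rows overlapped between groups. The 4 clusters were taken because they hold the lower members described above. Neither this sum nor its rows are therefore separate support for a direction. miR-216b, the neighbour of miR-216a, had 12, 5 and 5 reads in WT and 1, 0 and 0 in the mutant. All rows of the 4 clusters together stood at 112, 51.3 and 35.99 RPM in WT and 23.4, 22.1 and 20.5 RPM in the mutant. This sum holds every member that passed, so its gap between groups restates those values and is no separate support for a direction.

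**Figure D4:**
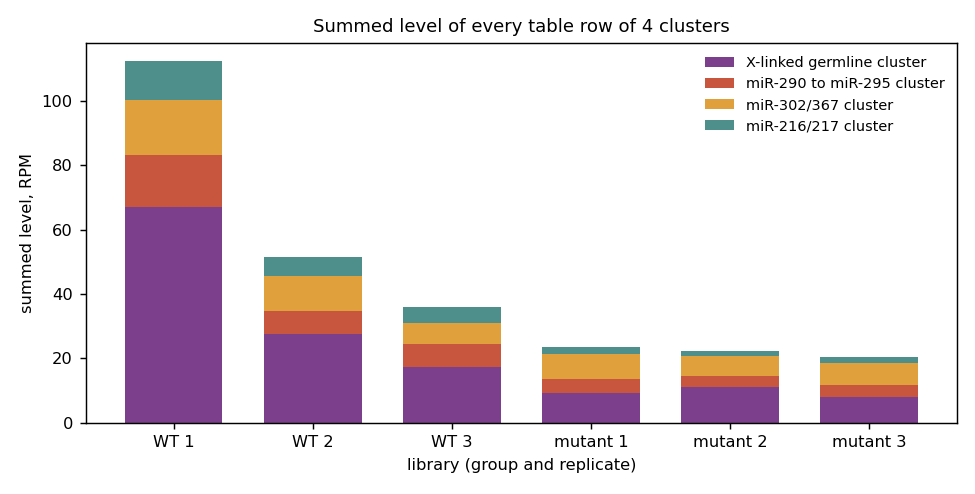
Summed level (RPM) of all table rows of 4 clusters in each library, members and scarcer rows together; colours are the X-linked germline, miR-290 to miR-295, miR-302 and miR-367 and miR-216 and miR-217 clusters. The WT bars reach 112, 51.3 and 35.99 RPM and the mutant bars 23.4, 22.1 and 20.5 RPM. The bars include the members that passed.

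The miR-200 family, known from epithelia where it holds back the repressors Zeb1 and Zeb2, did not follow that pattern across the WT libraries. Its members carry the seeds AAUACUG (miR-200b, miR-200c and miR-429) and AACACUG (miR-141 and miR-200a), which differ by a base in the middle.
miR-200c: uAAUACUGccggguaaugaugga
miR-200b: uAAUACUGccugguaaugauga
miR-429: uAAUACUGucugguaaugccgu
miR-141: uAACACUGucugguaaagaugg
miR-200a: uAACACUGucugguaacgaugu
miR-200c stood at 8.77, 7.53 and 12.8 RPM in WT and 5.15, 5.54 and 4.43 RPM in the mutant. All mutants lay below all WT libraries, WT replicate 3 was the highest, and the difference of −0.80 ± 0.31 did not pass (limma adjusted p = 0.0859). miR-141, encoded beside miR-200c on chromosome 6, stood at 2.47, 3.23 and 6.32 RPM in WT and 2.58, 1.93 and 3.22 RPM in the mutant, with overlap (−0.43 ± 0.36). The 3 members of the chromosome 4 cluster were closer to 0, with miR-200a at 0.22 ± 0.33, miR-429 at −0.06 ± 0.38 and miR-200b at 0.05 ± 0.42, which turned to −0.02 after median-of-ratios scaling. With all 6 libraries and no replicate block, 0 of the 5 epithelial members passed by limma or edgeR and 1 had an unadjusted p under 0.05, miR-200c, which passed as lower without WT replicate 2 (limma adjusted p = 0.0475); 2 lay above 0, or 1 after median-of-ratios scaling.

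The imprinted Dlk1-Dio3 cluster on chromosome 12, whose miRNAs are expressed from the maternal chromosome, held 13 members, and 0 of them passed with all 6 libraries by limma or edgeR. Of the 13, 10 lay above 0 (median 0.35), where 66.3% of all tested did (median 0.14). An unadjusted p under 0.05 was found for 2, as higher, where the share over all tested was 14.2%, and for 3 all mutants lay above all WT libraries, where 14.9% of all tested did. Also 10 lay above 0 after median-of-ratios scaling (median 0.22).

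The sequences of the 3 whose groups were apart are shown with their seeds in capitals. miR-377 lay at chr12:109740553-109740574 in an exon of Mirg, and miR-341 at chr12:109611556-109611576 in an intron of Rian. miR-376b lay at chr12:109723508-109723528 in no other annotated gene of its strand.
miR-377: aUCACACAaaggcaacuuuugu
miR-341: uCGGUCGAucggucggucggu
miR-376b: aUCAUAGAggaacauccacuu
miR-377 stood at 3.56, 8.87 and 7.47 RPM in WT and 10.5, 14.4 and 11.3 RPM in the mutant. The groups were apart, with WT replicate 1 the lowest, and the difference was 0.84 ± 0.30 (limma adjusted p = 0.0625). It was 0.51 without WT replicate 1 (limma adjusted p = 0.5502) and 1.06 without WT replicate 2 (0.0410). miR-341 stood at 6.31, 8.07 and 5.55 RPM in WT and 9.14, 11.3 and 14.5 RPM in the mutant, apart as well (0.72 ± 0.30, limma adjusted p = 0.124). miR-376b, which lies among the other miR-376 hairpins, stood at 1.37, 2.69 and 2.87 RPM in WT and 4.45, 3.13 and 5.23 RPM in the mutant. It too was apart and did not pass (0.68 ± 0.36, limma adjusted p = 0.271). miR-433 overlapped between groups (0.44 ± 0.30). Summed, the 13 members stood at 43.0, 72.3 and 41.9 RPM in WT and 68.7, 65.7 and 78.1 RPM in the mutant, so that WT replicate 2 lay among the mutants. Fibroblast markers, given above, were also lower in WT than in the mutant, with WT replicate 2 the highest of the WT libraries; their part in these differences was not tested.

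**Figure D5:**
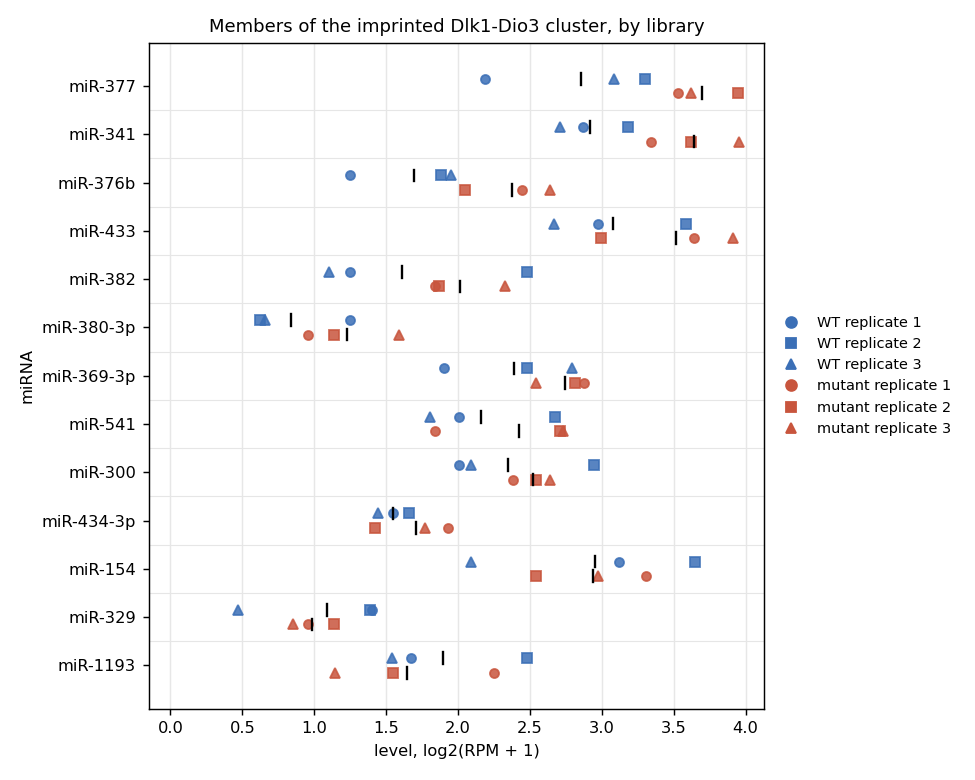
Level of the 13 members of the imprinted Dlk1-Dio3 cluster in each library, on log2(RPM + 1), ordered by their log2 difference; blue symbols are WT, red symbols mutant, and black ticks group means. For miR-377, miR-341 and miR-376b the groups are apart; for the other 10 they overlap.

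Outside these lists, miR-130b, a relative of miR-130a, had the smallest p among the higher members after miR-377. It stood at 0.548, 3.49 and 2.87 RPM in WT and 5.62, 3.85 and 4.83 RPM in the mutant. All mutants lay above all WT libraries, WT replicate 1 stood apart at 2 reads, and the difference of 0.93 ± 0.36 did not pass (limma adjusted p = 0.0859). Without WT replicate 1 it was 0.46 (limma adjusted p = 0.657). miR-125a-3p stood at 4.11, 6.99 and 3.83 RPM in WT and 8.20, 8.43 and 8.86 RPM in the mutant. The mutants lay close together above all WT libraries (0.71 ± 0.31, limma adjusted p = 0.157). miR-671-5p overlapped between groups (0.59 ± 0.31, limma adjusted p = 0.281).

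Lower and not past the threshold were miR-582-5p (−0.77 ± 0.30), miR-491 (−0.87 ± 0.39), miR-701 (−0.67 ± 0.31) and miR-340-3p (−0.68 ± 0.33), which were chosen after their values were seen because their unadjusted p was under 0.05. All 4 lie in introns of protein-coding genes, Pde4d, Focad, Ttc28 and Rnf130. miR-582-5p stood at 12.3, 11.0 and 10.3 RPM in WT and 9.61, 6.50 and 3.62 RPM in the mutant. Its WT libraries lay close together while its mutants spread widely, and its limma adjusted p was 0.0869.

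The 4 members of the neuronal list, miR-137, miR-129-5p, miR-129-3p and miR-124, all had differences above 0 (median 0.30). Of all miRNAs tested, 66.3% lay above 0 (median 0.14). miR-129-5p and miR-129-3p share a hairpin, and 0 of the 4 passed by limma or edgeR. The highest of the 4, miR-137, stood at 6.85, 8.33 and 6.70 RPM in WT and 9.37, 9.87 and 6.85 RPM in the mutant, with overlap. miR-124, the most abundant miRNA of neurons, was near the lower edge of the range at 0.274, 0.807 and 1.53 RPM in WT and 2.34, 0.241 and 1.21 RPM in the mutant. Its difference of 0.22 ± 0.43 turned to −0.03 without WT replicate 1 and to −0.12 without mutant replicate 1. The 6 members of the cluster in an intron of Sfmbt2 had 2 differences above 0 and 4 below, or 1 and 5 after median-of-ratios scaling, and the 3 of the Clcn5 intron cluster on chromosome X had 2 above and 1 below. The most abundant of these in the range were miR-669o (0.01 ± 0.34) and miR-501-3p (0.35 ± 0.32), and for both the groups overlapped. None of these passed by limma or edgeR, and none had an unadjusted p under 0.05. The miR-183 cluster was represented by miR-182 (0.33 ± 0.39) and the miR-15/16 and miR-449 list by miR-449a (0.29 ± 0.35), and neither passed. The lists of blood and immune miRNAs and of mirtrons held no member. As the rule left out miR-146b by name although it lay in the range, this absence is not read as a result.

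The miR-17-92 list, paralogues of the cluster included, held 5 members, with 3 differences above 0 and 2 below, or 2 and 3 after median-of-ratios scaling, and 0 passing by limma, edgeR or at an unadjusted p. Their seeds tie them to other members: miR-92a, miR-92b and miR-363 share AUUGCAC with miR-32, and with miR-25, which is more abundant at a mean of 115 RPM.
miR-92a: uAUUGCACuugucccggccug
miR-92b: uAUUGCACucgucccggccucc
miR-363: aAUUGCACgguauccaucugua
miR-32: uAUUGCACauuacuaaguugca
miR-363 stood at 2.47, 1.88 and 1.53 RPM in WT and 2.81, 2.89 and 4.43 RPM in the mutant, apart between groups and not past the threshold (0.56 ± 0.37, limma adjusted p = 0.430). miR-92a overlapped between groups (−0.29 ± 0.36). This row matched hairpins on chromosome 14 and chromosome X, and which of them gave its reads cannot be told. miR-19a of the same list also overlapped between groups.

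Shared seeds were otherwise rare. The 85 members carried 76 distinct seeds, and 13 members shared theirs with another member, in 4 groups. The seed AAGUGCU of miR-291a-3p, miR-294, miR-302a and miR-302d occurred in no miRNA of at least 10 RPM, and the same held for both miR-200 family seeds. In all, 16 members shared a seed with a miRNA of at least 10 RPM.

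For some members the other arm of the hairpin held most of the reads. That arm was in the table for 40 members; 10 of these lay below it, and for 7 the other arm had a mean of at least 10 RPM. miR-125a-3p had a mean of 6.74 RPM beside 685 RPM for miR-125a-5p, miR-532-3p 2.95 RPM beside 175 RPM for miR-532-5p, and miR-340-3p 4.87 RPM beside 229 RPM for miR-340-5p. In these pairs the 2 arms differed in the level they reached by far more than any difference between genotypes. The log2 differences of the abundant arms were 0.44 for miR-125a-5p, 0.54 for miR-532-5p and −0.11 for miR-340-5p, and none passed. For miR-425, at a mean of 7.79 RPM, the row marked with an asterisk was the more abundant arm, at 158 RPM. miR-192 had a mean of 2.63 RPM, while the row of miR-194, which matched a hairpin beside it on chromosome 19, was more abundant. Whether other hairpins gave part of the miR-194 reads was not examined, so the levels of these neighbouring hairpins are not compared.

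By position, 16 of the 70 members that lay on a single chromosome were on chromosome X and 14 on chromosome 12, or 22.9% and 20%, where 16.1% and 16.5% of the 514 table rows placed in this way were. Of the 72 placed members, 33 lay only in introns and 12 in an exon of a gene annotated on their strand. For miR-677 that exon is of the gene Mir677 itself, while Atp5b holds it in an intron. The remaining 27 lay in no other annotated gene of their strand.

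The bounds of the range fell among miRNAs of nearly equal level. Just inside the lower edge were miR-291a-3p, miR-92b and miR-124 with means of 1.03, 1.05 and 1.07 RPM, and just below it miR-877, miR-216b and miR-542-3p with 0.973, 0.971 and 0.949 RPM. Just inside the upper edge were miR-350, miR-574-5p and miR-377 with 9.71, 9.47 and 9.36 RPM, and just above it miR-135a, miR-671-3p and miR-376c with 10.1, 10.3 and 10.7 RPM.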

How the data were processed

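The deposited values are RPM, per the file headers normalised values, which by their sums and steps are reads per 1000000 miRNA reads of a library; which aligner, counter, miRNA release or build the authors used is not given in the sources used here. Multiplexed miRNA libraries were made from total RNA, per the labels' protocols. Dividing by the smallest step gave whole reads for 100% of values in each library, with a tolerance of 0.02 reads; 1 read was worth 0.191 to 0.403 RPM.

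log2(RPM + 1) was tested with limma 3.58.1 in R 4.3.3 (trend, two-sided, no covariates) for the 309 rows with a mean of at least 1 RPM, with Benjamini-Hochberg adjustment over all of them and a threshold of 0.05. This log scale understates the change of scarce miRNAs. edgeR 4.0.16 called 2 members and 9 miRNAs in all on the recovered reads; DESeq2 1.42.0, other pseudocounts, filters and scalings, a replicate block and each library left out were further alternatives. The steps were tested on simulated data. The members and the 12 lists were chosen with earlier results of these data known, although the rule for members takes only the mean level, and the lists come from general knowledge. The naming rule took, of the members, those passing, the 6 of smallest p per direction, the 6 highest and 6 lowest means, the edges, the top 3 per list and those sharing a seed, 45 in all. No pair of libraries in a group agreed within counting noise. The p-values of the main limma fit rest mostly on the spread pooled over all miRNAs at a given level. The spread of a miRNA's own samples enters them only in small part. Positions are from RefSeq and GENCODE M21 (GRCm38) by own match. The deposited sequences of 13 members matched no RefSeq hairpin exactly, so these members were not placed.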

Additional observations from a re-analysis of the deposited data

How the results depend on the processing

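The 5 calls kept their direction in all 19 other fits. miR-465a/b/c-3p passed in 19 of 19, miR-293 in 15, miR-216a in 13, and miR-741 and miR-880 in 11 each. Against 5 members and 20 miRNAs in all (14 higher, 6 lower), testing all 478 rows with a read gave 1 and 9, limma without trend 3 and 9, TMM scaling 2 and 10, edgeR with TMM 2 and 9, and an adjusted p under 0.1 gave 10 and 40. Median-of-ratios scaling gave 13 miRNAs in all (8 higher, 5 lower), as did edgeR with DESeq2 size factors, each with 4 members; DESeq2 gave 9 higher and 7 lower. Leaving out single libraries gave 1 to 7 members and 7 to 33 miRNAs. It was 1 without WT replicate 1 and 2 without mutant replicate 2 or 3; miR-377 and miR-125a-3p passed as higher and miR-200c as lower without WT replicate 2, miR-224 as higher and miR-582-5p as lower without mutant replicate 1, and miR-465c-5p as lower without WT replicate 3. The cause of these changes was not tested.

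The deviations of same-numbered libraries from their group means correlated at 0.31, −0.04 and 0.14 over all miRNAs tested. Over the members the correlations were 0.11, −0.06 and 0.06. The labels do not say that the numbers pair animals. With the replicate block limma called 6 members, miR-465c-5p among them (adjusted p = 0.0406), and 22 miRNAs; edgeR with the block, added after seeing the data, called 8 and 39 (23 higher, 16 lower), with miR-465c-5p (0.00225), miR-200c (0.0355) and miR-582-5p (0.0449) among the members. edgeR with plain library totals, also added then, called 6 members.

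Groups did not overlap for 21 members (7 higher, 14 lower), or 20 after median-of-ratios scaling; over all tested, 14.9% were apart as higher and 7.12% as lower. For named members 750 alternative values kept side and direction, 26 no longer passed, 9 passed newly and 51 changed sign without passing. Depth was 1 limit: a member had 24 to 227 reads over 6 libraries.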
